A study of Mus musculus with 2 samples.

Results

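Expression of the dystrophin-glycoprotein complex was described through 8 of its genes, Dmd, Utrn, Dag1, Sgca, Sgcb, Sgcd, Sntb1 and Dtna. They were taken by name, not by their values, with every probe set that the platform annotation gives to that gene alone, which made 29 probe sets of 8 genes out of 34945 probe sets of 18193 genes. RNA was taken from BALB/c fetal mouse palate at E18.5 (days of embryonic development), with 1 Affymetrix array for wild type and 1 for palate labelled Myf5-/-:MyoD-/-, that is, homozygous null for both of the transcription factors that commit cells to skeletal muscle. The series asks what skeletal muscle does in palate development. The labels do not give the design of the null alleles, nor whether a sample was 1 fetus or several pooled.

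The dystrophin-glycoprotein complex links the actin cytoskeleton of a muscle fibre, through the plasma membrane, to laminin in the surrounding basement membrane. Dystrophin, or its autosomal homologue utrophin, binds actin on the inside of the membrane. Dystroglycan spans the membrane and binds laminin through sugar chains, the sarcoglycans form a second group of membrane proteins beside it, and syntrophins and dystrobrevins are the cytoplasmic adaptors. Loss of dystrophin or of alpha-, beta- or delta-sarcoglycan causes muscular dystrophy. Most of these proteins are also made outside muscle, in nerve, Schwann cells, smooth muscle, vessels and epithelia, whereas alpha-sarcoglycan is largely restricted to striated muscle.

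With 1 array per genotype there was no replicate and no test, and every difference is between these 2 arrays. Values are MAS5 signals, a summary of the brightness of the probes of a probe set, after scaling of the arrays to each other. A ratio is the second array over wild type, as a difference of log2 signals. A probe set is called measured if either array reached a signal of 658, and signals under a floor of 287 carry no order. The only measure of spread is within arrays: where a gene had several measured probe sets, their log2 ratios scattered with a pooled SD of 0.51 (10190 probe sets of 4030 genes), which covers probe and isoform effects but not differences between fetuses.

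Over all 11238 measured genes the median log2 ratio was 0.071, 4.22% were lower by 2-fold or more on the second array and 3.51% were higher by as much. Of the genes past 2-fold, 54.6% were lower, and this share was 65.0% with the values as deposited, 79.3% when arrays were scaled on the signal of reference genes and 71.8% when scaled on the ratio of those genes. Those reference scalings moved the median of all genes by -0.20 and -0.13, so signs of small ratios hold only relative to that shift. Neither targeted gene separated the arrays: Myod1 had signals of 1938 and 1663 in its measured probe set and Myf5 had 517 and 531. Where these probe sets lie relative to the removed parts is not stated, so they do not check the label, and the second array is called null-labelled. The palate marker list had 5 of 7 genes measured (Msx1, Prrx1, Shox2, Meox2 and Barx1), with Osr2 and Tbx22 below that level on both arrays. Msx1 had 9515 in wild type and 2561 on the null-labelled array, 3.71-fold lower. Prrx1 (-0.24), Barx1 (-0.074), Meox2 (0.019) and Shox2 (0.14) lay within 2-fold in their brightest probe sets. The other measured Shox2 probe set had 1073 and 346 (-1.63). It counted as measured through wild type only, so it could enter only as lower. Osr2 (379 and 45.6) and Tbx22 (335 and 194) were above the floor in wild type only.

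The members bright enough to compare lay within 2-fold, as most measured genes did. Of the 8 members 6 were measured (Dmd, Utrn, Dag1, Sgcb, Sntb1 and Dtna). All 6 lay within 2-fold, as did 92.3% of all measured genes. Their median log2 ratio was 0.22, against 0.071 for all measured genes. Above 0 were 5 of the 6, as were 56.3% of all measured genes, and 4 were above 0 with the values as deposited or with either reference scaling, under which Sgcb turned negative. The median of the members stayed 0.13 to 0.16 above that of all genes under the scalings tried. Within 1 SD between probe sets of 0 lay 5 of the 6 members, as did 70.4% of all measured genes. Neither Sgca nor Sgcd was measured, and Sgca, the striated-muscle member, was above the floor in wild type only.

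**Figure D1:**
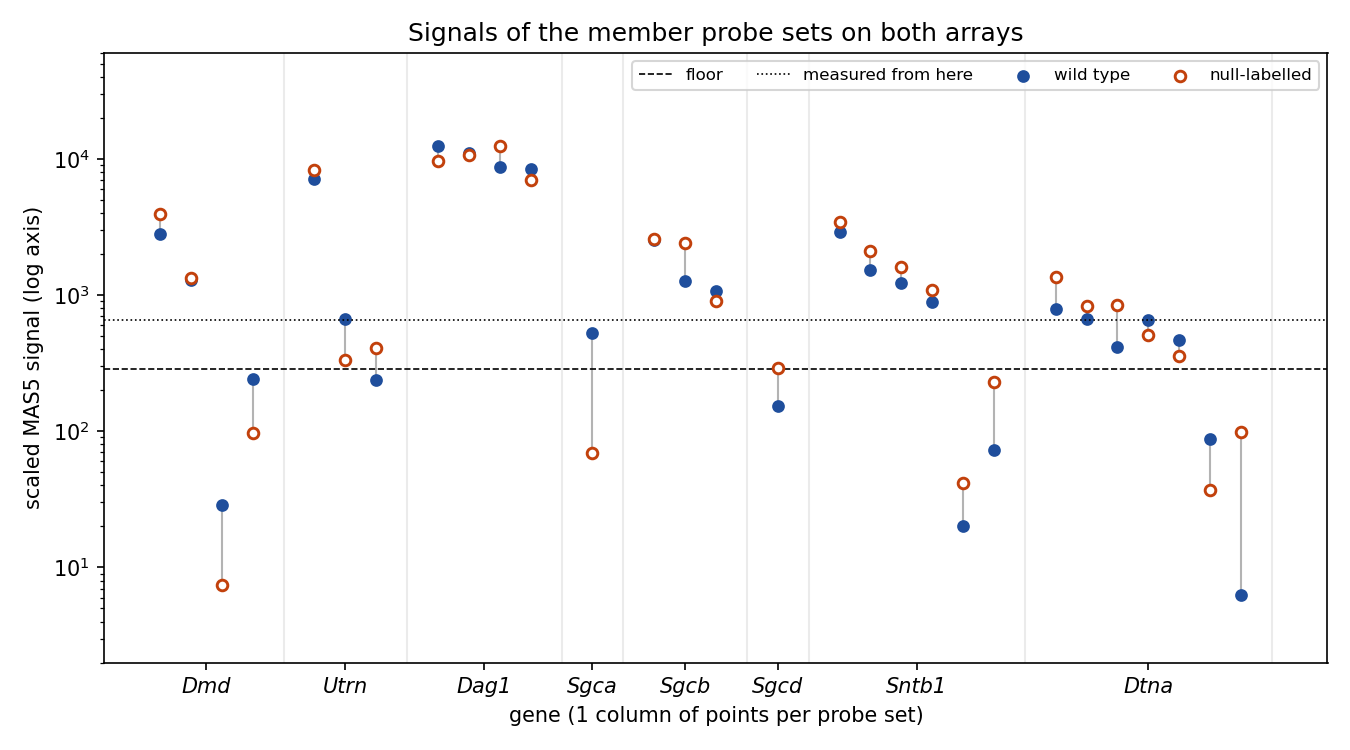
Scaled MAS5 signal (log axis) of each of the 29 member probe sets, with wild type as filled points and the null-labelled array as open points; the dashed line is the floor of 287 and the dotted line the level of 658 from which a probe set counted as measured. In most probe sets above the dotted line the points lie close together, and Sgca is above the floor in wild type and well under it on the null-labelled array.

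Dmd encodes dystrophin, the actin-binding rod protein inside the membrane. Its brightest probe set had signals of 2825 and 3929 (wild type first, here and below), a log2 ratio of 0.48, at the 82.1th percentile of measured genes. A second probe set, made from the same source sequence, had 1284 and 1341, a log2 ratio of 0.062 that turned to -0.013 with the values as deposited. Dmd signal was thus clear on both arrays, and both ratios were smaller than the SD between probe sets. The other 2 Dmd probe sets were under the floor on both arrays, at 241 and 96.5 and at 28.5 and 7.48, and give no ratio. The Dmd gene makes several proteins from separate promoters, of which the long forms are known from muscle and brain and short forms from many other tissues, and the annotation does not say which of them a probe set reads.

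Dmd is X-linked, and the arrays differed in sex-linked transcripts. Eif2s3y, on the Y chromosome, had signals of 10.8 and 2794, and Xist, the RNA of the inactive X chromosome, had 33813 and 16947 in its brightest probe set. The part of fetal sex in the Dmd values was not tested.

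Utrn encodes utrophin, which lines the fetal muscle membrane and later stays at the neuromuscular junction and in non-muscle cells. Its brightest probe set had 7135 and 8232, a log2 ratio of 0.21. A second measured probe set had 673 and 334, a log2 ratio of -1.01 (2.02-fold lower), and was the only measured member probe set at least 2-fold lower. It reached 658 through wild type only. The third was above the floor on the null-labelled array only, at 240 and 408, which makes it at least 1.42-fold higher. The Utrn probe sets therefore disagreed in direction, and their mean over the measured ones was -0.40, opposite in sign to the brightest. The lower ratio rests on signals near the level of 658 and the higher one on signals far above it.

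Dag1 encodes dystroglycan, the laminin receptor at the centre of the complex. All 4 of its probe sets were measured and were well above the floor on both arrays. The brightest had 12417 and 9594, a log2 ratio of -0.37, and Dag1 was the only measured member gene below 0, joined by Sgcb with the values as deposited or with either reference scaling. The others had 11139 and 10683 (-0.060), 8706 and 12537 (0.53), and 8386 and 7015 (-0.26). Of the 4 ratios 3 were below 0 and 1 above, their mean was -0.041 and their SD 0.40. The 2 probe sets at 0.53 and -0.060 come from one source sequence and differed by 0.59, so the spread between probe sets is as large as any of these ratios. No direction for Dag1 stands out from that spread.

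The sarcoglycans are single-pass membrane proteins that assemble together in striated muscle. Sgca, alpha-sarcoglycan, has 1 probe set, with signals of 527 and 69.5. The wild-type value lay above the floor but under the level of 658, and the other lay under the floor, so the difference is at least 1.84-fold lower. Without a floor the log2 ratio was -2.92, with the floor at the 20th percentile -2.28, and with the floor at the 60th percentile no difference was left. Sgca was thus dim in wild type, and how much lower it was depends on how low signals are treated.

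Sgcb, beta-sarcoglycan, which is made in many tissues, was at a like level on both arrays in its brightest probe set. That probe set had 2525 and 2600, a log2 ratio of 0.042. A probe set from the same source sequence had 1064 and 900 (-0.24), and the third had 1275 and 2420 (0.92, or 1.90-fold higher). The 3 ratios had a mean of 0.24 and an SD of 0.61, wider than the pooled SD. Sgcd, delta-sarcoglycan, known from striated and smooth muscle, has 1 probe set with 153 and 292, that is, under the floor in wild type and barely above it on the other array. It gives a bound of at least 1.02-fold higher, too small to show a direction.

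The sequence upstream of Sgca is shown beside that of Cav3, muscle caveolin, another striated-muscle gene of the complex that was lower (its values follow with the other complex genes), and of Dmd and Sgcb, whose brightest probe sets were within 2-fold. Myf5 and MyoD bind a motif called the E-box, of letters CANNTG, and MyoD is known to favour CAGCTG. Sequences are the 250 bases before a RefSeq transcript start on GRCm38.p6, on the strand of the gene, and capitals mark each CANNTG. They lie at chr11:94976328-94976577 (minus strand) for Sgca, chr6:112459255-112459504 (plus) for Cav3, chrX:82948620-82948869 (plus) for 1 of the 2 listed starts of Dmd, and chr5:73647738-73647987 (minus) for Sgcb.
Sgca: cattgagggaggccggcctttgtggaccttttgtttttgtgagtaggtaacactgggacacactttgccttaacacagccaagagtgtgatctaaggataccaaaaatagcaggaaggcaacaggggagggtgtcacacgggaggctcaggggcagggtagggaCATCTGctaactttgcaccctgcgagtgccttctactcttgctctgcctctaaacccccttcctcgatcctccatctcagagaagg
Cav3: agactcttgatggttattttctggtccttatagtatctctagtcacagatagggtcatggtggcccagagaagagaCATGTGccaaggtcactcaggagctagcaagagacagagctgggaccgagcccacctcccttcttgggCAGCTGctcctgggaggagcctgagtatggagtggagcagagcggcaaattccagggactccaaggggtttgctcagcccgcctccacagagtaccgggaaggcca
Dmd: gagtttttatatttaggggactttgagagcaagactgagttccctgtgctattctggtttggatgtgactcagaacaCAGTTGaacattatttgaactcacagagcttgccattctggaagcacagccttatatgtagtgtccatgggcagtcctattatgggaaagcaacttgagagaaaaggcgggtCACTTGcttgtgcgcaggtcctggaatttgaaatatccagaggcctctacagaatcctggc
Sgcb: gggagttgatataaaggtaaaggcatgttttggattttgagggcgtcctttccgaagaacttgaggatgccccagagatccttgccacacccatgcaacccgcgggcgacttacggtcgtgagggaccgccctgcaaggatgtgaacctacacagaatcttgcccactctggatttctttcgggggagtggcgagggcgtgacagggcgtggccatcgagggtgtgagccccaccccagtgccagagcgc

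Sgca holds 1 CANNTG, at 86 bases before the start, and Cav3 holds 2, of which the one 106 bases before the start is CAGCTG. Dmd holds 2, and also 1 CArG box, the motif of serum response factor, which 1.47% of all 32851 promoter windows hold. The other listed Dmd start, at chrX:85048045-85048294, holds neither motif. Sgcb holds none. CANNTG, which reads alike on both strands and of which CAGCTG is a special case, occurs in 66.2% of these windows, and CAGCTG in 13.0%. An E-box was therefore present in most windows of this length. Of the 8 members 6 have a promoter entry, with 8 entries, and Sntb1 and Dtna have none. Among the members whose sequence is not shown, Utrn holds 7 CANNTG, Sgcd holds 2 and Dag1 holds 1 in either entry, none of them CAGCTG. The Utrn start lies inside the annotated span of the gene. Utrn had a log2 ratio of 0.21 in its brightest probe set, and Dag1 had -0.37. Whether any of these motifs bears on the ratios was not tested.

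**Figure D2:**
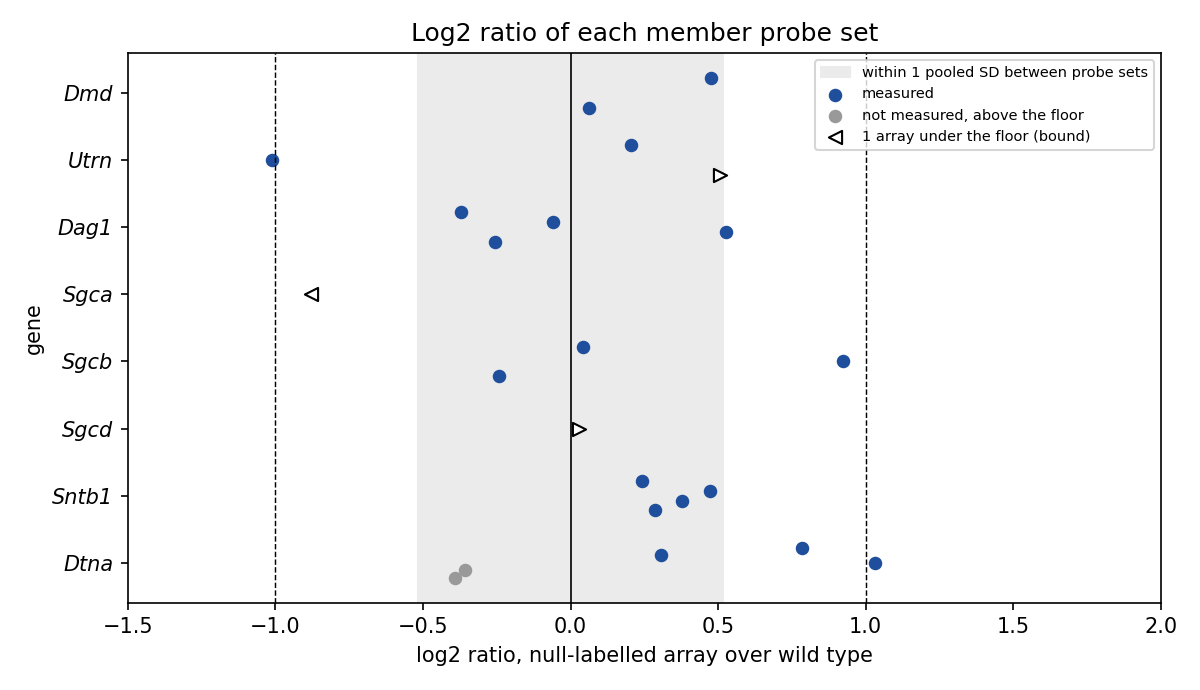
Log2 ratio (null-labelled array over wild type) of each member probe set that was above the floor on at least 1 array, with measured probe sets in blue, unmeasured ones in grey and bounds as open triangles; the grey band is 1 pooled SD between probe sets (0.51) and dashed lines mark 2-fold. Sntb1 probe sets cluster at 0.24 to 0.47, whereas those of Utrn, Dag1, Sgcb and Dtna lie on both sides of 0.

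Sntb1 encodes beta-1-syntrophin, an adaptor that binds dystrophin, utrophin and dystrobrevin and holds signalling proteins at the membrane. Among the members with 3 or more measured probe sets, its ratios had the smallest spread. The 4 measured ones had 2893 and 3420 (0.24), 1529 and 2119 (0.47), 1232 and 1601 (0.38), and 889 and 1083 (0.29). All 4 were higher on the null-labelled array, with a mean log2 ratio of 0.34 and an SD of 0.10. Each of these ratios is smaller than the pooled SD, and 56.1% of all measured probe sets were above 0. The brightest and the next come from one source sequence, and the remaining 2 Sntb1 probe sets were under the floor on both arrays.

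Dtna encodes alpha-dystrobrevin, a relative of dystrophin that binds it and the syntrophins. It had the highest ratio of the measured member genes, with 787 and 1357 in its brightest probe set, a log2 ratio of 0.79 (1.72-fold higher), at the 93.0th percentile of measured genes. The other measured probe sets had 417 and 852 (1.03, or 2.05-fold higher) and 670 and 828 (0.31). The first of these reached 658 on the null-labelled array only. It was the only measured member probe set at least 2-fold higher, and its ratio was 0.96 with the values as deposited. A probe set just under the level of 658 had 655 and 512 (-0.36), and another had 465 and 354 (-0.39). So 3 Dtna probe sets were higher and 2 lower among the 5 above the floor on both arrays, all at modest signals, and the last 2 of the 7 were under the floor on both arrays.

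Counted by probe set, 18 of the 29 were measured, 6 were under the floor on both arrays, 3 on 1 array and 2 lay between floor and 658. Of the 18, 13 were above 0 and 5 below (43.9% of all measured probe sets were below 0), and 11 of 19 were above 0 with the values as deposited. Past 2-fold were 1 lower and 1 higher, against 4.52% lower and 3.68% higher among all 17407 measured probe sets. The median over the 18 was 0.26, and over all measured probe sets 0.071. Within 1 pooled SD of 0 lay 13 of the 18, as did 69.4% of all. For the 4 pairs of member probe sets made from one source sequence, the log2 ratios differed by 0.23 to 0.59.

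**Figure D3:**
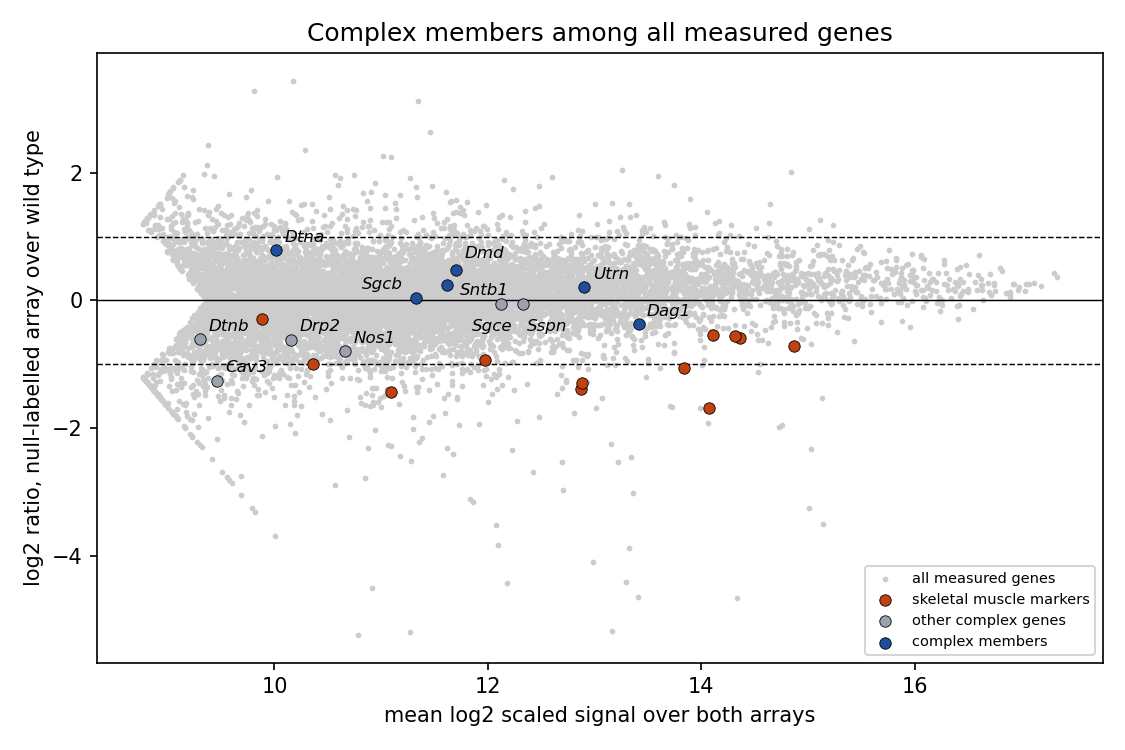
Log2 ratio (null-labelled array over wild type) against mean log2 signal for all 11238 measured genes (grey points), with the 6 measured complex members in blue, other complex genes in light grey and skeletal muscle markers in orange; dashed lines mark 2-fold. The members sit between -0.37 and 0.79, within the cloud, while all 12 muscle markers lie below 0.

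Among other genes of the complex, listed by name, Cav3 was lower and the rest lay within 2-fold. Of 9 genes with a probe set 6 were measured, and these 6 had a median log2 ratio of -0.61, with all 6 below 0 (43.7% of all measured genes were below 0). Cav3 and Dtnb reached 658 through wild type only, so they could enter the count only as lower, and among the 3 genes left with a limit at the 75th percentile the median was -0.056. Cav3, which binds dystroglycan at the membrane, had 1087 and 454, 2.39-fold lower. Nos1, the neuronal nitric oxide synthase that the complex anchors in muscle and that neurons also make, had 2137 and 1232 (-0.79), while its next probe set, not measured, had 543 and 603. Drp2, a dystrophin-related protein of Schwann cells, had 1408 and 921 (-0.61), and Dtnb, beta-dystrobrevin of non-muscle tissue, had 778 and 511 (-0.61). Sgce, epsilon-sarcoglycan, the widely made relative of Sgca, had 4554 and 4388 (-0.054), and Sspn, sarcospan, had 5245 and 5045 (-0.056). Sntb2 had 598 and 599 and was not measured, and Sntg1 and Sntg2 were under the floor on both arrays.

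Markers of skeletal muscle were below 0, as Sgca and Cav3 were. All 12 listed muscle markers were measured and all 12 were below 0, as were 43.7% of all measured genes. Their median log2 ratio was -0.96, with a range from -1.69 to -0.29. Of the 12, 5 were at least 2-fold lower, against 4.22% of all measured genes. The summed signal of the 12 went from 198359 to 107396. Acta1, skeletal actin, went from 38283 to 23430, Ckm, muscle creatine kinase, from 12145 to 4644, Myh3, embryonic myosin, from 25860 to 17251 and Tnnc2, fast troponin C, from 31028 to 9596. None of the 5 cardiac markers, a further source of Sgca and Cav3, was measured, and 3 of them were under the floor on both arrays. The part of muscle content in the Sgca and Cav3 values was not tested. In bulk tissue, fewer muscle cells and less of a transcript per cell cannot be told apart.

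Markers of several tissues that make the non-muscle forms of the complex also differed. Fibroblast markers, all 8 measured, were spread around 0, with 5 above and 3 below. Their median was 0.056, in a range from -2.03 to 0.74. All 10 neuron markers were above 0, with a median of 1.04 and a summed signal that went from 56371 to 126157. Prph, at 0.52 in its brightest probe set, had -0.99 in its other measured one. Of all measured genes, 56.3% were above 0 and 43.7% below. Of 7 Schwann cell markers, all measured, 5 were above 0, with a median of 0.51 and summed signals of 44673 and 62591. That median was the ratio of the brightest Mbp probe set, and the other measured Mbp probe sets ran from -0.74 to 0.42. Below 0 were Sox10 (-0.47, with -0.50 in its other measured probe set) and Erbb3 (-0.079). Stratified epithelium markers had 7 of 8 measured genes below 0, with a median of -0.79 and summed signals of 109810 and 61386. In endothelium 5 of 6 were below 0, with a median of -0.82 and summed signals of 9341 and 7173. Pecam1, Tie1 and Robo4 reached 658 through wild type only, so they could enter only as lower. Emcn reached it on the null-labelled array only, so it could enter only as higher. Cdh5 (-0.37) and Kdr (-0.064) reached it on both arrays. Smooth muscle, whose list includes Des, had 4 of 5 measured genes below 0, with a median of -0.86, the ratio of Actg2. Actg2 and Des reached 658 through wild type only, so they could enter only as lower. Acta2 (-0.15), Tagln (-0.94) and Mylk (1.34) reached it on both arrays. Summed signals of the list were 41174 and 46734, of which 6761 and 17083 came from 1 Mylk probe set. The other measured Mylk probe set had 1131 and 616. Whether these tissues had a part in the values of Dmd, Utrn, Sntb1 or Dtna was not tested.

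**Figure D4:**
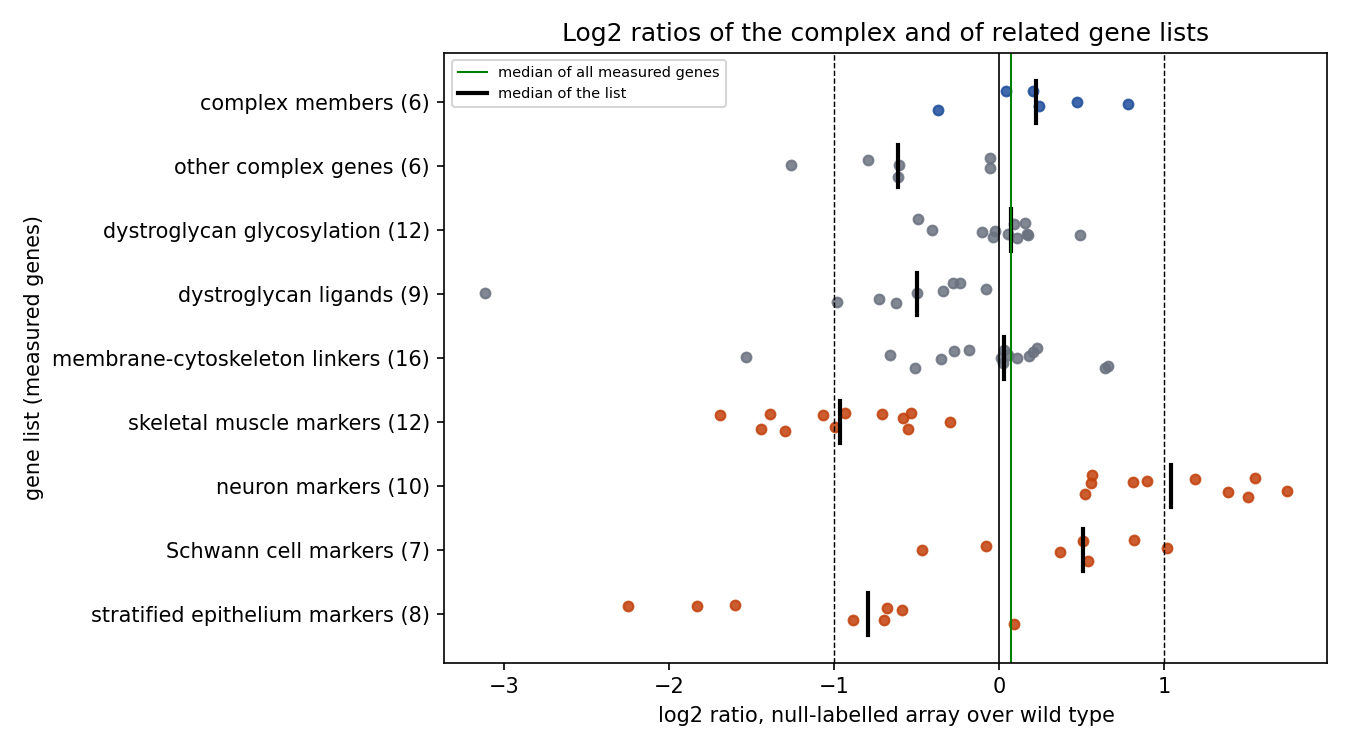
Log2 ratios (null-labelled array over wild type) of the measured genes of each list, with the number of genes in brackets, the black bar at the median of the list, the green line at the median of all measured genes and dashed lines at 2-fold. The complex members are centred at 0.22, other complex genes at -0.61, skeletal muscle markers at -0.96 and neuron markers at 1.04.

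Among the ligands that dystroglycan binds outside the cell, Lama5 was lower and the others lay within 2-fold in their brightest probe sets. Of 11 ligand genes with a probe set 9 were measured, and all 9 were below 0 (43.7% of all measured genes were), with a median log2 ratio of -0.50. The 1 gene past 2-fold lower compares with 4.22% of all measured genes. Lama5, the laminin alpha-5 chain of epithelial and vascular basement membranes, had 10728 and 1235 in its brightest probe set, 8.69-fold lower. Its other measured probe set had 740 and 433 (-0.77), a much smaller difference. That probe set reached 658 through wild type only, so it could count only as lower and does not bear on the direction. Lama2, the alpha-2 chain of muscle and Schwann cell basement membranes, had 3859 and 3179 (-0.28). Agrn, agrin, which binds dystroglycan and organises the neuromuscular junction, had 13528 and 9585 (-0.50). The remaining measured ligands were Lamb2 (-0.98), Lamb1 (-0.73, with 0.0072 in its other measured probe set), Hspg2 (-0.63), Bgn (-0.34), Lamc1 (-0.24, with -1.03 in its other measured probe set) and Lama4 (-0.076, other -0.50). Lamb2 passed 2-fold with the values as deposited (-1.05). The brightest probe sets of Lama2, Agrn, Bgn, Lamc1 and Lama4 lay within 1 SD of 0.

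Enzymes that build the laminin-binding sugar of dystroglycan were spread around 0. Of 14 genes with a probe set 12 were measured, with a median log2 ratio of 0.073. All 12 lay within 2-fold, as did 92.3% of all measured genes. The range ran from Dpm2 at -0.49 to Dolk at 0.49, which both act early, in making the mannose donor. Pomt2, which adds the first mannose, had 1081 and 1125 (0.058), and Pomgnt1, which extends O-linked mannose, had 1716 and 1910 (0.16). Pomt1, the partner of Pomt2, was under the floor on both arrays.

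Proteins that tie the complex or neighbouring adhesion sites to the cytoskeleton went both ways. Of 18 genes 16 were measured, with 6 below 0, 10 above 0 and a median of 0.029. Des, desmin, the intermediate filament of muscle, had 1255 and 434, 2.90-fold lower. It was the 1 gene past 2-fold in its brightest probe set, while 4.22% of all measured genes were lower by as much. Des counted as measured through wild type only, so it could enter only as lower. Other measured probe sets passed 2-fold in Flnc (1645 and 674, -1.29) and, in the other direction, in Itgb1 (347 and 714, 1.04). Their brightest probe sets had -0.66 for Flnc and 0.66 for Itgb1. Plec, plectin, a linker to intermediate filaments in muscle and epithelium, had 9643 and 7978 (-0.27). Itga7, the muscle integrin chain that is the other laminin receptor of the fibre, had 533 and 591 and was not measured.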

How the data were processed

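Total RNA of fetal palate was labelled with biotin and hybridised to 1 Affymetrix array per genotype, per the labels. The deposited values are linear signal intensities, 1 per probe set. Per the submitters' processing notes, the authors computed them with MAS5; no version and no genome build are given in the sources used here. Leaving out the extreme probe sets, the mean was 1500.01 on both arrays. Detection calls were not used here.

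The arrays were scaled to each other on the median of the probe sets in the upper part (50th percentile and up) of both, with a factor of 0.974 for wild type and 1.03 for the null-labelled array. Scaled signals below the 40th percentile were raised to it as a floor before log2. A fold with 1 array under the floor is a lower bound. The probe set with the greatest mean log2 signal stood for its gene, which was measured if either array reached the 60th percentile. Genes were named from the platform annotation, with 34741 of 34945 identifiers found in the RefSeq table of GRCm38.p6. All 64 control probe sets and the 932 probe sets of several genes were left out.

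With 1 array per genotype no test was run, and no precision beyond the SD between probe sets can be given. The number of arrays limits every value. Calls are by size, at least 2-fold. The members, the lists and the rule for named genes were chosen with earlier results of these data known. Named were all 8 members, every measured gene of the related lists past 2-fold and a fixed set of their genes. Drp2, Dpm2, Dolk, Pomt2, Pomgnt1, Sntg1, Sntg2, Mylk, the other ligands, the sex-linked transcripts and the palate markers were added after their values were seen. So were Flnc, Itgb1, Actg2, Acta2, Tagln and the neuron, Schwann cell and endothelium markers given by name. No gene is named for likeness to a member, since a pattern over 2 arrays is a single ratio. Promoter motifs were searched in RefSeq sequences. The steps were tested on simulated data, with less noise than the spread between probe sets here. That test does not bear on small ratios. Analyses used Python 3.11.15, numpy 2.4.6 and pandas 2.3.3, and figures matplotlib 3.10.9.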

Additional observations from a re-analysis of the deposited data

How the results depend on the processing

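Alternatives were other scalings, floors, an offset, the mean over probe sets, fewer probe sets, other limits for a measured gene and other fold rules. No measured member gene was at least 2-fold lower under any of the 14 alternatives (main count 0). Sgca, not measured and so outside this count, had log2 ratios of -2.92 with no floor, -2.28 with the floor at the 20th percentile and -1.89 with the offset of 100, all past 2-fold, and of 0 with the higher floor (60th percentile). For measured members, the count of higher ones was 0 except 1 (Dtna) under the 1.5-fold rule. The median of the members ranged from 0.038 to 0.26. The count of lower member probe sets, 1, became 0 with the higher floor (60th percentile), the offset of 100, the 75th percentile limit and the 3-fold rule. The count of higher ones, 1, became 0 under those same settings, with the values as deposited and with both reference scalings, and 3 under the 1.5-fold rule. For the other complex genes, the count lower, 1, became 0 with the higher floor (60th percentile), the 75th percentile limit and the 3-fold rule, and 4 under the 1.5-fold rule; with the 75th percentile limit, which left 3 genes, their median was -0.056. Scaling on reference-gene signal moved the medians to -0.11 for glycosylation, -0.68 for ligands and -0.16 for linkers. Quantile normalization gave -0.10 for linkers, and leaving out the _s_at and _x_at probe sets gave -0.28 for ligands. The cause was not tested, beyond what each setting does by construction. Lama5 went to -1.95 with the mean over its probe sets, and Cav3 to -0.72 and Des to -0.93 with the floor at the 60th percentile; no named ratio past 2-fold changed sign. No paired analysis was possible because each genotype has 1 array. Signals near the floor, those of Sgca, Sgcd and the dimmer Utrn and Dtna probe sets, limit what can be read.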
